A study of Homo sapiens with 14 samples.

Results

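The poison exons of 10 splicing regulator genes, SRSF1, SRSF2, SRSF3, SRSF4, SRSF5, SRSF6, SRSF7, SRSF10, SRSF11 and TRA2B, were examined in HEK293T cells with and without mutant SF3B1. Every splice event of these genes with a mean of at least 10 junction reads was taken, whatever its type. This gave 90 events of 91 listed for these genes, in a table of 114349 events. They comprised 56 cassette exons, 11 alternative 3′ splice sites, 6 alternative 5′ splice sites, 7 retained introns and 10 pairs of mutually exclusive exons. HEK293T is an epithelial line from human embryonic kidney, and the labels give no treatment. The 3 WT libraries carried SF3B1 K700K and the 3 MT libraries SF3B1 K700E, expressed from the endogenous locus of an isogenic line. The series also holds R-loop profiles of Nalm-6 cells, which contain no splicing measurements and were not used. The table gives no expression levels, so the identity of the cells could not be checked against marker genes. The number of clones behind each HEK293T line is not given in the sources used here.

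SR proteins carry RNA recognition motifs and a tail rich in arginine and serine, and they bind exonic enhancers to help the spliceosome define an exon. Many SR protein genes contain an ultraconserved poison exon, an exon with a premature stop codon. Including it sends the transcript to nonsense-mediated decay, and because SR proteins often promote inclusion of their own poison exon or of one in a related gene, the exons keep SR protein levels in balance. SF3B1 is a subunit of the U2 small nuclear ribonucleoprotein and takes part in recognition of the branch point and of the 3′ splice site. Its hotspot mutations are known for the use of cryptic 3′ splice sites a short distance upstream of the usual ones. Since decay removes transcripts that contain a poison exon, the level of such an exon in RNA-Seq is set both by splicing and by decay, which cannot be told apart in these data.

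Exons were classed from GENCODE 44 on GRCh38, the build of the table. A cassette exon was classed as a poison exon by annotation if it belonged to no transcript with a complete protein-coding call, or by reading frame if its inclusion, and not its skipping, placed a stop more than 50 bases before the last exon junction. Of the 56 cassette events, 36 met either definition and 21 met both, the latter at 18 distinct exons. SRSF10 had no poison exon event that varied between libraries.

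The following sequences show where the reading frame ends in a stop-carrying exon of SRSF3, SRSF4, SRSF6 and TRA2B, and in those of SRSF11 and SRSF5, which held the events with differences above 0.1. Each was read from the GRCh38 reference, 5′ to 3′ on the strand of the gene, and begins with 40 intron bases. The exon starts at base 41, and capitals mark the first in-frame stop codon.
SRSF11 109-nt exon (chr1:70231055-70231124, plus strand): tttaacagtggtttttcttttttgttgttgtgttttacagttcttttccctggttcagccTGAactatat
SRSF11 117-nt exon (chr1:70231819-70231888, plus strand): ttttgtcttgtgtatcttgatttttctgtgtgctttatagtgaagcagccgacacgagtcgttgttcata
SRSF11 33-nt exon (chr1:70247077-70247149, plus strand): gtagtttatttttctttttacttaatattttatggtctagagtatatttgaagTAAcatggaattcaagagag
SRSF5 upstream 3′ splice site (chr14:69769471-69769585, plus strand): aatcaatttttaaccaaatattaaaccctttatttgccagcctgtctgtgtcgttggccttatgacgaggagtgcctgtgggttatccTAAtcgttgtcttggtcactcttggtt
SRSF6 268-nt exon (chr20:43459113-43459328, plus strand): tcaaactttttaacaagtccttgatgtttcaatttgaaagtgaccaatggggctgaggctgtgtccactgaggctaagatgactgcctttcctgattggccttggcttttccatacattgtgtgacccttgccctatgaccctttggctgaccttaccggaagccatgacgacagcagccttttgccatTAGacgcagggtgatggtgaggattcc
SRSF3 456-nt exon (chr6:36599781-36599856, plus strand): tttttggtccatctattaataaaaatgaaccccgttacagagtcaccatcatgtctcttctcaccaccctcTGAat
SRSF4 228-nt exon (chr1:29160062-29160131, minus strand): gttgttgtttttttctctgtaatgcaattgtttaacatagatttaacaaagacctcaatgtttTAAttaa
TRA2B 276-nt exon (chr3:185931748-185931892, minus strand): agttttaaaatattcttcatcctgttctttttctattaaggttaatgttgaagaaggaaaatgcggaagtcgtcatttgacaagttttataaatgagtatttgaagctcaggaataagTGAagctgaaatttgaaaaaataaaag

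In these exons the stop came early. It was the codon starting at exon base 14 of the SRSF11 33-nt exon, base 21 of the 109-nt exon, base 24 of the SRSF4 exon, base 32 of the SRSF3 exon and base 49 of the exon made by the SRSF5 upstream site. In the SRSF11 117-nt exon it began at base 48, beyond the bases shown. The stops of TRA2B, at base 79, and SRSF6, at base 150, lay deeper in the exon. The last 20 intron bases held from 8 pyrimidines in SRSF3 to 15 in TRA2B.

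The splicing change known for mutant SF3B1 was present in the MT libraries. Across the series, 26 of 83581 tested events passed an adjusted p of 0.05 in limma with a difference in inclusion level above 0.1. Of these, 10 were among 154 tested events of 10 genes known to respond to mutant SF3B1, and they lay in 7 of those genes. That list was chosen with earlier results of these data known, so it is not an independent check. The inclusion level is the fraction of transcripts, by length-corrected junction reads, that carry the longer or included form. The alternative 3′ splice site of SERBP1, an RNA-binding protein gene, had levels of 0.461, 0.5 and 0.509 in WT and of 0.801, 0.757 and 0.805 in MT, and the difference of 0.298 had an adjusted p of 6.75e-10. The cassette exon of BRD9, a chromatin remodelling subunit, is itself a poison exon known in SF3B1-mutant cells. Its levels were 0.026, 0.012 and 0.019 in WT against 0.393, 0.176 and 0.392 in MT (difference 0.301, adjusted p = 0.022). The other calls among these genes were 3 events of COASY, 2 of ERGIC3 and 1 each of DLST, DVL2 and UQCC1. The MT libraries are 3 of 6 MT values listed for each event and are named here by the order of their columns.

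No event of the 10 SR protein genes was called. Of the 90 events, 9 had the same level in every library and 81 were tested. The count of 0 of 81 stood beside 0.0311% of all tested events, a rate at which fewer than 1 call falls on 81 events. By limma's unadjusted p, 5 of 81 (6.17%) were under 0.05, compared with 4.47% of all events. The smallest adjusted p was 0.438. WT and MT libraries did not overlap in 2 of 81 events (2.47%), compared with 5.46% of all events, and in both every MT library lay below every WT library, as in 3.15% of all events.

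The differences were also small in size. The median size of the difference between mean inclusion levels was 0.00767 over the 81 events and 0.0137 over all tested events, at a median of 414 and 82.4 junction reads per event. The difference exceeded 0.1 in 4 events (4.94%), compared with 5.8% of all events. All 4 were lower in MT, and they lay in SRSF11 and SRSF5. For 64 of the 81 events the 95% interval of the difference lay within 0.1 of 0, and for 49 within 0.05. These intervals were made on the arcsine scale and turned back to levels, so they are rough for events near 0 or 1. In 26 of the 81 events every library was at 0.98 or above, or at 0.02 or below. These could show only a gain or only a loss, and the largest difference among them was 0.01. Several events share an exon or a junction and therefore share reads, so the counts of events are not counts of independent choices.

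**Figure D1:**
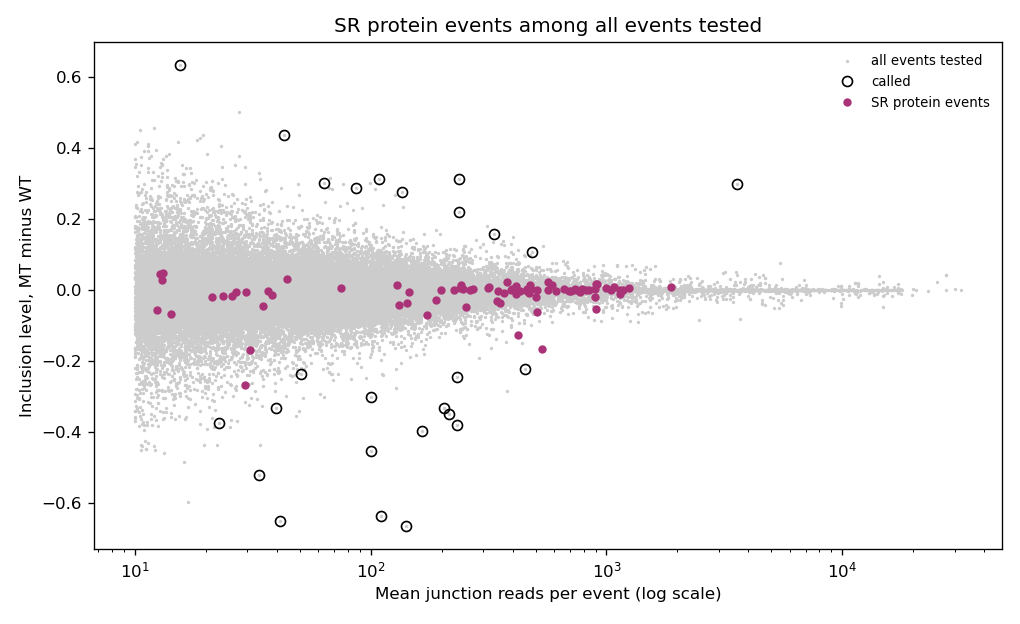
Difference in mean inclusion level, MT minus WT (vertical axis), against mean junction reads per event on a log scale (horizontal axis), for all 83581 tested events (grey), the 26 called events (open circles) and the 81 SR protein events (filled circles). Most SR protein events lie close to 0, and the 4 beyond 0.1 in size lie below it.

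Among the 33 tested cassette events that met either definition, the median difference was 0.000333, with 17 higher and 16 lower in MT. In these 33 the largest difference was 0.268 in size, at the SRSF11 109-nt exon, 3 exceeded 0.05, 2 had an unadjusted limma p under 0.05 and 1 had separate libraries. Among the 20 that met both, the median difference was 0.000833, with 12 higher and 8 lower, compared with -0.002 over 55825 tested cassette exons of all genes. Of these 20, 13 had a mean level from 0.01 to 0.99, and the rest lay so near 0 or 1 that little change could show. Some of the rest, in SRSF5 and TRA2B, count junctions shared with coding exons. The largest difference in those 20 was 0.048 in size, at the SRSF11 117-nt exon, and none of the 20 had an unadjusted limma p under 0.05 or separate libraries. The interval lay within 0.1 of 0 for 17 of the 20. The other 3 were the SRSF6 exon, the SRSF11 117-nt exon and 1 event of the SRSF11 33-nt exon, and for these a shift of 0.1 could not be told from none.

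**Figure D2:**
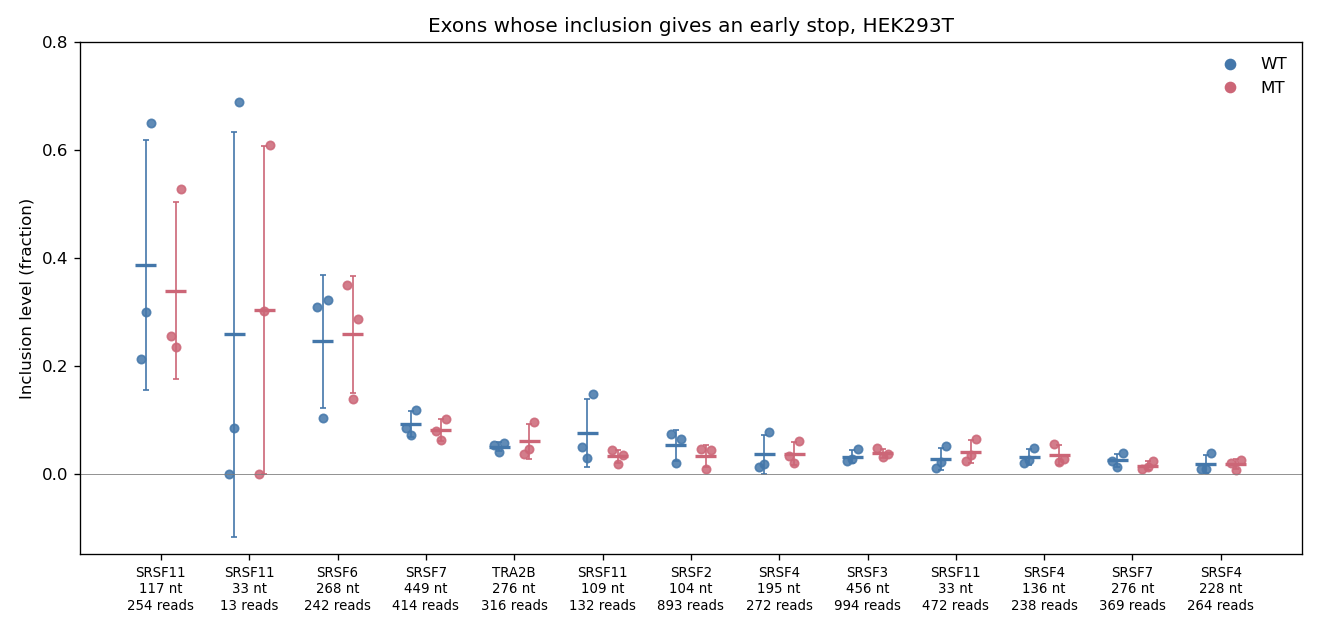
Inclusion level (fraction, vertical axis) of the 13 events that met both definitions of a poison exon and had a mean level from 0.01 to 0.99, ordered by mean level, with exon length and mean junction reads below each. Points are libraries (3 WT, 3 MT), bars are means and error lines are SD; WT and MT points overlap in every event.

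SRSF6 contributed 1 event, with a mean level that was the highest outside SRSF11 among the 13 poison exon events in the plot of levels by exon. SRSF6 is a regulator with a pair of RNA recognition motifs, and its 268-nt exon, shown above, is spliced between coding exons at chr20:43459153-43459420. The level was 0.310, 0.103 and 0.323 in the WT libraries and 0.350, 0.139 and 0.287 in the MT libraries. The lowest library of each group lay far below the other two, and the groups overlapped. Means were 0.245 ± 0.123 and 0.259 ± 0.108 (SD, n = 3 each), and the difference of 0.0133 had an interval from -0.0947 to 0.128 (242 reads, adjusted p = 0.938).

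SRSF3, the smallest SR protein, has a 456-nt poison exon at chr6:36599821-36600276. It was included at 0.023, 0.027 and 0.045 in WT and at 0.047, 0.031 and 0.036 in MT. The difference was 0.00633, with an interval from -0.0121 to 0.0255 at 994 reads, so a rise of the size used for calling was outside the interval. A second annotated poison exon of SRSF3, of 98 nt, was close to unused, with levels of 0, 0.001 and 0 in WT against 0.002, 0 and 0 in MT at 1180 reads. Another arrangement, the 456-nt exon against the following 39-nt exon, gave 0.0163 ± 0.00702 in WT against 0.0227 ± 0.00764 in MT.

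SRSF7, a close relative of SRSF3 with a zinc knuckle, had 3 tested poison exon events, all within 0.0107 of equal levels. The 449-nt exon (chr2:38748898-38749346) was included at 0.085, 0.072 and 0.118 in WT and at 0.079, 0.062 and 0.102 in MT. The difference was -0.0107, with an interval from -0.0505 to 0.0295. The shorter 276-nt version, which uses a later 3′ splice site, averaged 0.0247 in WT against 0.0150 in MT, and the 69-nt exon averaged 0.000667 and 0.00133. The intron that holds the 449-nt exon was also scored as retained, which brings in a stop as well. Its level was 0.190, 0.141 and 0.318 in WT against 0.148, 0.118 and 0.198 in MT, lower in MT by 0.0617 on average with overlapping libraries (adjusted p = 0.856, exact permutation p = 0.5).

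SRSF2, which is itself mutated in myeloid disease, makes decay-sensitive transcripts by splicing within its 3′ end. Its 104-nt exon (chr17:76735772-76735875) was included at 0.073, 0.019 and 0.065 in WT and at 0.046, 0.009 and 0.044 in MT. The mean was 0.0193 lower in MT, with an interval from -0.0463 to 0.00841 at 893 reads (adjusted p = 0.856, exact permutation p = 0.4). The neighbouring 98-nt exon, the poison exon event of SRSF2 with the most reads, was classed as poison by annotation alone. Its level was 0.998 in WT against 1 in MT. Its 3′ splice site, at chr17:76735158, is also that of a longer exon that flanks the 104-nt exon. Its inclusion reads therefore need not come from a separate 98-nt exon, and the level does not give the abundance of that form.

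SRSF1, the founding SR protein, is regulated through its last intron. The 203-nt exon at chr17:58005398-58005600 was classed as poison by annotation alone. Its level was 0.974, 0.969 and 0.960 in WT against 0.994, 0.973 and 0.984 in MT, a difference of 0.0160 with an interval from 0.000516 to 0.0334. The unadjusted limma p was 0.0438 and the adjusted p 0.856, and MT 2 lay below the highest WT library. The high level does not mean that most SRSF1 messages carry a separate 203-nt exon, because the region it lies in is scored as retained at 0.984 in WT against 0.991 in MT and is part of the last exon of the reference transcript. Reads that skipped it were few, with a mean of 14.3 in WT against 7 over the 6 listed MT values.

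TRA2B, an SR-like protein that controls its own message through exon inclusion, has its known 276-nt poison exon at chr3:185931577-185931852. Levels were 0.054, 0.041 and 0.056 in WT against 0.037, 0.046 and 0.096 in MT. MT 3 was the highest and MT 1 the lowest of the 6, and the mean difference of 0.00933 had an interval from -0.0293 to 0.0434 (316 reads, adjusted p = 0.908). The poison exon event of TRA2B with the most reads, a 213-nt form of a coding exon with a stop in its first bases, stood at 0.995 and 0.998. That figure counts reads of the exon's shared downstream junction, and the upstream 3′ splice site that makes the longer form was rare, at 0.0173 in WT against 0.013 in MT.

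SRSF4 had the most tested poison exon events, 11, with differences between -0.0683 and 0.0303, and 4 of them met both definitions. SRSF4 is the longest of the classical SR proteins. The 195-nt exon (chr1:29159864-29160058) was included at 0.013, 0.017 and 0.077 in WT and at 0.032, 0.020 and 0.060 in MT, with means of 0.0357 ± 0.0359 and 0.0373 ± 0.0205 at 272 reads. A 228-nt version of it, with the 3′ splice site printed above, averaged 0.0183 and 0.0173. WT 3 held the highest level of all libraries at both. A separate 136-nt exon (chr1:29168503-29168638) averaged 0.0307 in WT against 0.0347 in MT. The intron that holds the 195-nt exon was retained at 0.139, 0.069 and 0.289 in WT and at 0.188, 0.078 and 0.137 in MT. A 184-nt exon was close to unused, at 0.00133 in WT against 0.000333 in MT. The 7 poison exon events of SRSF4 classed by annotation alone were not shown by reading frame to gain a stop by inclusion. They rested on 12.4 to 44.3 reads, with bounds of their intervals as far out as -0.165 and 0.11.

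SRSF10, a regulator that acts as a splicing repressor when dephosphorylated, had 6 tested events and none was a poison exon. Its best-covered cassette exon, of 54 nt (chr1:23971573-23971626), was included at 0.898, 0.922 and 0.935 in WT and at 0.858, 0.880 and 0.905 in MT. The difference was -0.0373, with an interval from -0.0816 to 0.00725 (353 reads, adjusted p = 0.856, exact permutation p = 0.2), and MT 3 exceeded WT 1. The same exon with a 3′ splice site 3 bases further in, at 51 nt and 173 reads, fell on the same side, with 0.788, 0.867 and 0.855 in WT against 0.719, 0.786 and 0.791 in MT. These are overlapping measures of 1 exon and share their skipping reads. The 165-nt exon near the 5′ end, classed as poison by annotation, was at 1 in every library.

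**Figure D3:**
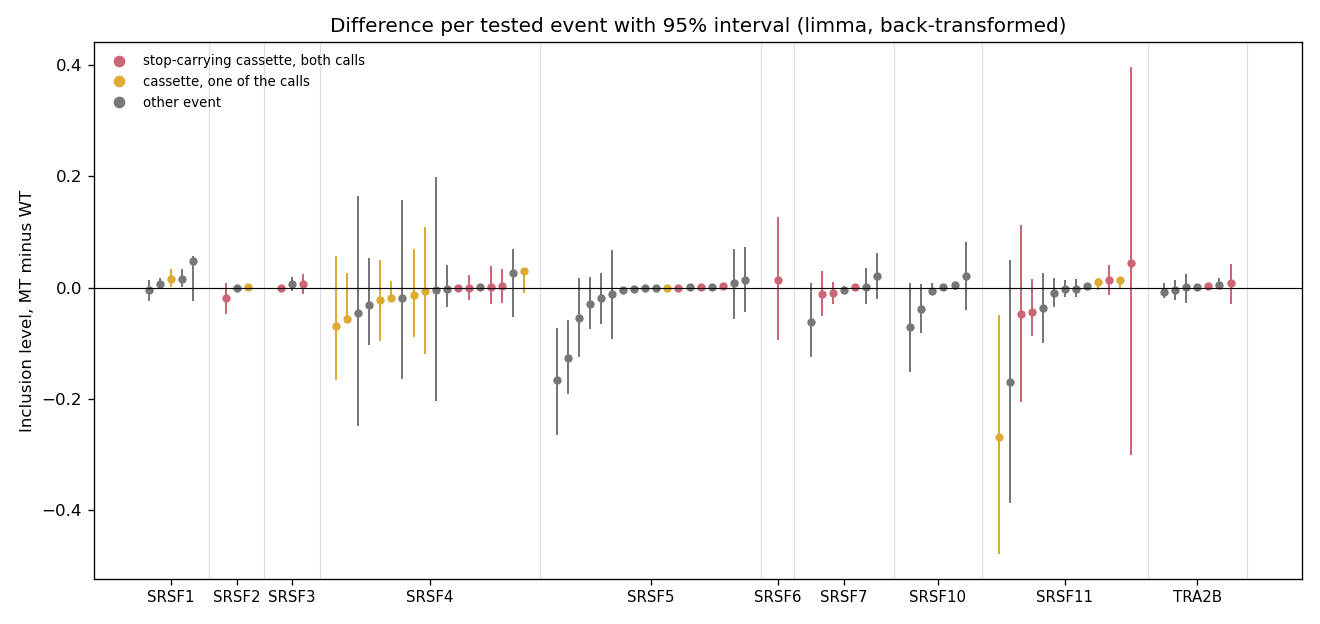
Difference in inclusion level, MT minus WT (vertical axis), for each of the 81 tested events, grouped by gene and ordered by size within a gene. Points are differences of means over 3 WT and 3 MT libraries. Lines are 95% intervals from limma turned back to the level scale, drawn out to the point where the interval missed it. Colours mark events meeting both definitions of a poison exon, a single definition or neither, and the lowest points are in SRSF11 and SRSF5.

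SRSF11, an SR-related protein that contacts the U2 auxiliary factor, gave the largest difference of the set. Its poison region holds a 109-nt exon and, downstream of it, a 117-nt exon, both with stops and both printed above. When the 109-nt exon was scored between the upstream coding exon and the 117-nt exon, its level was 0.739, 0.394 and 0.614 in WT against 0.304, 0.333 and 0.306 in MT. Every MT library was below every WT library, and the WT libraries were spread far more widely, with means of 0.582 ± 0.175 and 0.314 ± 0.0162. The difference was -0.268, with an interval from -0.479 to -0.0498, and did not pass adjustment (an unadjusted limma p of 0.0188, adjusted p = 0.856). The two-sided exact permutation test gave p = 0.1, the smallest that 3 against 3 libraries can give. The event rested on 29.2 reads on average. Both of its forms carry the 117-nt exon, so it measures which of the stop-carrying forms is made.

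The other events of the same region did not separate the genotypes. Scored against direct splicing to the next coding exon, the 109-nt exon was at 0.049, 0.029 and 0.147 in WT and at 0.043, 0.018 and 0.035 in MT, with a difference of -0.043 and an interval from -0.0873 to 0.0152 (132 reads). The 117-nt exon, the highest of those 13 events, was at 0.212, 0.300 and 0.650 in WT and at 0.256, 0.234 and 0.528 in MT (254 reads). WT 3 and MT 3 were each more than 0.2 above the rest of their group, and the mean difference of -0.048 had an interval from -0.206 to 0.113. The choice of the 109-nt over the 117-nt exon averaged 0.103 in WT against 0.0673 in MT. These 4 readings were lower in MT on average and share junction reads, whereas the 117-nt exon scored after the 109-nt exon stood at 0.986 in WT against 1 in MT.

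A 33-nt exon of SRSF11 further downstream (chr1:70247117-70247149) also carries a stop. In the event of SRSF11 with the most reads of this class, its level was 0.011, 0.021 and 0.051 in WT against 0.024, 0.034 and 0.065 in MT, a difference of 0.0133 with an interval from -0.0122 to 0.0404 at 472 reads. When it was scored only with an upstream 3′ splice site of the next exon, 12.8 reads gave values from 0 to 0.690 in WT and from 0 to 0.609 in MT, which cannot show a difference at this depth.

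SRSF5, an SR protein first described in regenerating liver, has 1 annotated decay transcript and 2 of the 4 events with a difference above 0.1. The annotated decay form uses a 3′ splice site in the intron before the 74-nt coding exon, at chr14:69769511, and the stop printed above follows. The event that scores this longer form, and also counts unspliced RNA, was at 0.272, 0.145 and 0.307 in WT against 0.160, 0.102 and 0.080 in MT. It was lower in MT by 0.127, with an interval from -0.191 to -0.0587, but MT 1 lay above WT 2. This event had the smallest limma p of all 81, 0.000765, with an adjusted p of 0.438 and an exact permutation p of 0.2 (422 reads). The intron just upstream of the 74-nt exon, scored as retained, gave 0.438, 0.248 and 0.446 in WT against 0.338, 0.176 and 0.120 in MT, a difference of -0.166 with an interval from -0.265 to -0.0732 (an unadjusted limma p of 0.00145, adjusted p = 0.546). Both events were chosen for description after their values were seen.

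These SRSF5 readings are largely the same reads. The reads of the longer form, 141 on average in WT, include those that run through the 3′ splice site of the 74-nt exon without a junction, and only 5.33 reads on average in WT against 6.33 over the listed MT values spanned the junction to the upstream site. The intron before that site was scored as retained at 0.954 in WT against 0.924 in MT. The measured decrease therefore lay mainly in reads of RNA that was not spliced at the 74-nt exon. Junction reads to the upstream site were too few to give its share or to show whether it changed. These counts are not adjusted for coverage, and reads of the usual junction averaged 231 in WT against 363 over the listed MT values. Retained introns in general differed between libraries, with a mean level over 3597 events of 0.393, 0.394 and 0.434 in WT against 0.387, 0.390 and 0.416 in MT. WT 3 was the highest for both SRSF5 events, but MT 3, the highest MT library for retained introns in general, was the lowest for both, and the part of library composition in the result was not tested.

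The remaining SRSF5 events differed by 0.055 or less. The largest of these was the choice of the 99-nt coding exon over the 70-nt exon, at 0.812, 0.702 and 0.714 in WT against 0.766, 0.714 and 0.583 in MT. The 4 tested events classed as poison exons, among them the 1743-nt exon with 0.999 in WT against 1 in MT, lay between -0.001 and 0.00233. The 3 that met both definitions have long exons, which are stretches of unspliced RNA that share their outer junctions with normal coding exons. A level near 1 therefore does not give the abundance of their stop-carrying form. The other event is the 74-nt coding exon, classed by reading frame alone because it was scored with the 70-nt exon left out. The other event of the set without overlap was the 62-nt SRSF5 exon with a 3′ splice site 9 bases inside the usual one, scored against the 74-nt exon, at 0.006, 0.002 and 0.004 in WT against 0 in the MT libraries. It rested on 1.33 reads of the rare form in WT against 0.333 over the listed MT values, and no fold is given.

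**Figure D4:**
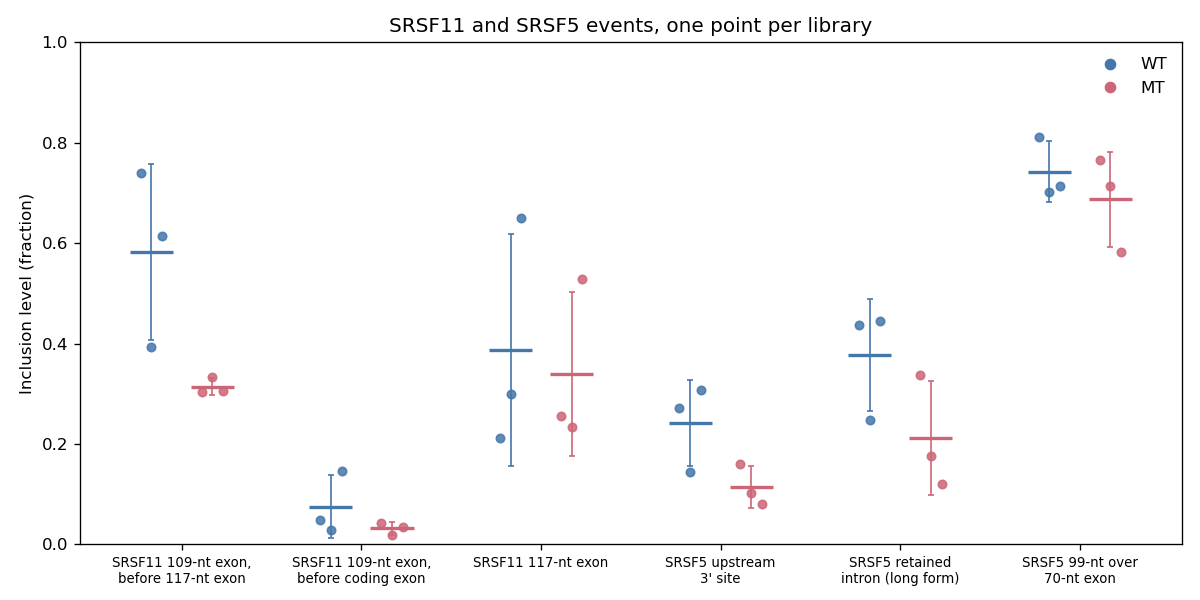
Inclusion level (fraction, vertical axis) of 6 overlapping events of SRSF11 and SRSF5. Points are libraries (3 WT, 3 MT), bars are means and error lines are SD; the groups are apart only for the SRSF11 109-nt exon scored before the 117-nt exon.

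Alternative 3′ splice sites are the event type for which mutant SF3B1 is known, and 10 of the 11 in these genes were tested. Differences ran from -0.17 to 0.021, with 7 lower and 3 higher in MT, where the level is that of the upstream site. Among these are 2 pairs of sites at a distance usual for cryptic sites of mutant SF3B1, and they are printed below with the bases between the sites in capitals, 20 intron bases before and 9 exon bases after.
SRSF11 sites 21 bases apart (chr1:70249911-70249960, plus strand): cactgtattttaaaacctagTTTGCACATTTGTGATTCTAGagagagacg
TRA2B sites 24 bases apart (chr3:185923976-185924028, minus strand): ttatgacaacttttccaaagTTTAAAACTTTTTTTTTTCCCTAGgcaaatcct

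The upstream site was a minor one in both genes, except in SRSF11 when reached from the 33-nt exon, and its mean level did not rise in MT. In SRSF11 its level was 0.067, 0.036 and 0.029 in WT against 0.045, 0.027 and 0.030 in MT, a difference of -0.010 with an interval from -0.0353 to 0.0172 at 469 reads. The same pair of sites, reached from the 33-nt exon, gave 0.657, 0.469 and 0.321 in WT against 0.451, 0.252 and 0.233 in MT, lower by 0.17 with overlapping libraries at 30.8 reads (adjusted p = 0.856, exact permutation p = 0.2). In TRA2B the upstream site, which adds the stop TAG at the end of the capitals, was at 0.020, 0.008 and 0.024 in WT and at 0.017, 0.007 and 0.015 in MT. The interval of its difference ran from -0.0216 to 0.0137 at 347 reads. Sites only 3 bases apart were balanced as well, with 0.769 ± 0.0369 in WT against 0.790 ± 0.0270 in MT for SRSF10 at 377 reads, and 0.979 in both genotypes for TRA2B.

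The same libraries tended to hold the highest levels from one poison exon to the next. Over the 13 poison exon events in the plot of levels by exon, from 7 genes, WT 3 was the highest WT library in 12. Several of the 13 score the same exon or share skipping reads, so these counts are not counts of independent exons. MT 3 was the highest MT library in 8 and MT 1 in 5. The lowest was WT 1 in 7 and WT 2 in 6, and MT 2 in 9 and MT 1 in 4. The median level over these events was 0.023, 0.027 and 0.065 in the WT libraries and 0.043, 0.031 and 0.060 in the MT libraries. WT 3 and MT 3 were also the highest of their groups in the mean level of retained introns, given above, while the mean level of all cassette exons differed by little, from 0.847 to 0.853 in WT and from 0.842 to 0.851 in MT. The part of these library differences in the comparison was not tested.

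Genes that act with SR proteins were examined in the same fit. Among 19 tested events of 2 of 4 further family members, 124 events of 9 kinases and import factors, 131 events of 11 cofactors, and 156 events of 15 genes for nonsense-mediated decay and the exon junction complex, 0 were called, beside 0.0311% of all tested events. By limma's unadjusted p, 3, 4, 6 and 2 of them in that order were under 0.05, beside 4.47% of all events. WT and MT libraries did not overlap in 10.5%, 4.84%, 3.82% and 3.21% of them, beside 5.46% of all events. The event with the smallest p of the family members was a cassette exon of TRA2A, the paralog of TRA2B, at 0.033, 0.047 and 0.071 in WT against 0.158, 0.149 and 0.186 in MT. Its libraries did not overlap, and its difference of 0.114 had an adjusted p of 0.415 (159 reads). Among the cofactors, a cassette exon of LUC7L, a U1 small nuclear ribonucleoprotein component, was at 0.229, 0.294 and 0.272 in WT against 0.462, 0.613 and 0.619 in MT (adjusted p = 0.466, 49.2 reads). A cassette exon of TNPO3, the import receptor of SR proteins, averaged 0.998 and 0.965, and one of UPF2, a core decay factor, 0.994 and 0.962. Each was named for the smallest p in its list, after the values were seen.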

How the data were processed

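RNA-Seq of HEK293T cells (3 WT and 3 MT samples) was analysed. According to the study's methods, stranded libraries of total RNA were sequenced as pairs of 101 bases and splicing was compared with the rMATS model. STAR, StringTie and GRCh38 are among the names in the submitters' processing notes, and versions are not given in the sources used here. The authors deposited inclusion levels, a fraction of length-corrected junction reads, for each library, with mean junction reads per group (means over 3 WT and 6 listed MT values). Their own p-values, adjusted p-values and differences were not used. Of the 6 MT values, 3 have columns of their own and were used. Whether these match the 3 MT samples of the labels is unknown, and the other 3 were not used. Total reads per library are not in the table. The junction-count lists were not used, because some are run together. The sources do not say whether the libraries came from separate cultures, so p-values measure the spread between libraries.

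Square roots of the levels were arcsine-transformed and fitted in limma 3.58.1 (R 4.3.3), with a variance trend on log2 mean reads, over 83581 events with at least 10 reads and levels that were not all equal, and Benjamini-Hochberg adjustment over all of them. Events with adjusted p under 0.05 and a difference above 0.1 were called. The fit was also run on simulated data with shifts larger than any seen in the 10 genes, which does not show how well it finds smaller ones. Coordinates are 1-based on GRCh38: the deposited starts match GENCODE 44 exon starts, read as 0-based, in 279 of 280 cases. Poison exon classes came from GENCODE 44 alone. The frame class of event types other than cassette exons was added after the data were seen.

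The genes and lists were chosen with earlier results of these data known. Named were called events, the poison exon event with the most reads in each gene (or its best-covered cassette exon), and further events with at least 20 reads whose libraries do not overlap, with called events of the other lists. Any event named outside this rule was chosen after its values were seen, among them the further poison exons of each gene, the overlapping events of SRSF11, SRSF5 and SRSF10, and the 3′ splice sites. R-loop peak lists of Nalm-6 cells were not used.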

Additional observations from a re-analysis of the deposited data

How the results depend on the processing

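No event of the 10 genes was called under any of the 13 settings. The smallest adjusted limma p over them was 0.303, for the SRSF5 upstream-site event, which also counts unspliced RNA. Over all events the count of 26 became 3 with a logit in place of the arcsine, 0 without the variance trend and 12 with a replicate block, and it ranged from 3 to 13 when 1 library was left out, every library lowering it. Without the minimum difference it was 31, and with no read minimum 19. The count of SR protein events whose libraries do not overlap, 2, ranged from 5 to 13 when 1 library was left out, since groups of 2 overlap less often. The median difference of the poison exon events, 0.000333, ranged from -0.00333 to 0.0025 in the same way.

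The differences whose sign turned did so when 1 library was left out, and none of them was a call. They ranged from -0.000333 to 0.000667 for the SRSF3 98-nt exon, from -0.00967 to 0.0223 for the SRSF4 195-nt exon, from -0.0578 to 0.0732 for SRSF6, from -0.0212 to 0.0025 for the SRSF7 449-nt exon, from -0.142 to 0.0833 for the SRSF11 117-nt exon, from -0.00167 to 0.00533 for the TRA2B 213-nt exon and from -0.00883 to 0.0207 for its 276-nt exon. The difference of the SRSF11 109-nt exon ranged from -0.362 to -0.19, with an unadjusted limma p from 0.00571 to 0.125, and was smallest in size without WT 1. That of the SRSF5 upstream-site event ranged from -0.175 to -0.0945, with an unadjusted limma p from 8.33e-05 to 0.0235. Without 1 library, the difference of the SRSF2 104-nt exon ranged from -0.036 to -0.00733 (smallest in size without MT 2), that of the SRSF11 33-nt exon from 0.00133 to 0.025 (smallest without MT 3) and that of the SRSF3 456-nt exon from 0.00183 to 0.013 (smallest without MT 1). The column numbers of WT and MT were compared as a possible pairing. Deviations of same-numbered libraries correlated at 0.1, 0.1 and 0.03, and those of other pairs at -0.1 to 0.01. These values are small and the MT columns are not matched to samples, so no pairing is established by the data or the design. The replicate block, chosen after the data were seen, called 0 events of the 10 genes and left 9 with an unadjusted p under 0.05 instead of 5.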
